A study of Mus musculus with 10 samples.

Results

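The 42 genes described here encode the machinery that copies DNA in S phase, the phase of the cell cycle in which the genome is duplicated, and the enzymes that supply it with nucleotides. They are the members of a list of 43 replication and nucleotide synthesis genes that had a probe set annotated to 1 gene, out of 18194 such genes on the array. Chaf1a was not analysed here. Where a gene had several probe sets, the brightest on average was read. All 42 passed the filter on dim genes, which kept 11939 genes, and 38 of them were above the array median on every array.

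Replication starts at origins that are licensed in G1, when the origin recognition complex, CDC6 and CDT1 load the ring-shaped MCM helicase onto DNA. At the start of S phase CDC45, the GINS complex and MCM10 turn the loaded ring into a moving helicase, primase and the polymerases copy both strands, and the sliding clamp PCNA holds the polymerases on the template. Many of these genes are transcribed under E2F factors when a cell leaves quiescence. In T cells this happens after antigen and growth factors such as interleukin-2 (IL-2), and most circulating T cells are quiescent.

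RNA was taken from CD4 T cells sorted from pooled lymph nodes and spleen of female mice aged 6 to 8 weeks, and 10 groups were measured with 1 Affymetrix mouse array each. Foxp3 is the X-linked transcription factor of regulatory T cells. GFPko cells, drawn as Foxp3-null GFP+ in the plots, were GFP-positive CD4 cells of Foxp3(gfpko/wt) females, in which the gfpko allele makes green fluorescent protein (GFP) instead of Foxp3. Because of X inactivation each such female also has cells using the intact allele, and this line was backcrossed to C57BL/6 for 5 generations. GFPfoxp3 cells, drawn as GFP-Foxp3+, were GFP-positive CD4 cells of Foxp3(gfp/gfp) mice, whose Foxp3 alleles both carry GFP, backcrossed for 8 to 10 generations. CD25pos cells were GFP-negative CD4 cells with CD25, the IL-2 receptor alpha chain, and CD25neg cells were GFP-negative CD4 cells without it, both from Foxp3(gfp/gfp) mice. GFPko, GFPfoxp3 and CD25pos cells were also taken from mice given 50 ng of IL-2 per g in each of 4 injections within 24 h and were isolated 30 min after the last. Whether the mice of the other arrays were given a vehicle is not in their labels.

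A separate experiment gave 3 arrays of transduced cells. CD25+ CD4 T cells of C57BL/6 mice were cultured with 100 ng/ml anti-CD3, anti-CD28 and 100 U/ml IL-2 and transduced with the MigR1 retrovirus, which carries GFP. The vector held PDE3B with the substitution H801A, or PDE3B, a phosphodiesterase that degrades cAMP, or no insert. They were transferred together with CD25- CD4 cells carrying the same vector into mice that lack the T cell receptor alpha chain, and 3 weeks later GFP+ GITR+ Ly5.1- CD4 cells were sorted. On day 5 the cultures held over 70% Foxp3+ cells, a share that does not give the make-up of the cells sorted later. These arrays describe cells selected by a vector and a surface marker, which may be mixed.

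Deposited values were log2 expression levels, and differences between them are log2 differences, in which 1 is 2-fold. Foxp3 lay at 9.39 and 8.33 in GFPko cells with and without IL-2, 10.86 in both GFPfoxp3 arrays, 2.85 and 3.90 in CD25pos cells with and without IL-2, and 2.45 in CD25neg cells. Pde3b was at 7.54 with H801A, 6.91 with PDE3B and 7.43 with the empty vector, so its probe set did not show the vectors named on the labels. Where the probe sets lie relative to GFP or to the transduced sequence is not given, so these levels check neither protein nor transduction. Of 7 T cell markers 6 had a probe set, and all 6 were above the array median on every array. Each group is thus 1 array, and no animal is named in the labels. P-values from limma, fitted with population and IL-2 as additive terms on the 6 arrays of GFPko, GFPfoxp3 and CD25pos cells, therefore measure how alike populations or IL-2 states responded, not repeatability between animals. In bulk RNA fewer cycling cells and less RNA per cycling cell cannot be told apart, and the precision of every value is limited by the number of arrays.

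The 42 genes varied together over the 7 arrays of sorted cells. The median deviation of the genes from their own means over the 10 arrays was 0.26 and -0.56 in GFPko cells with and without IL-2. It was 0.75 and -0.22 in GFPfoxp3 cells with and without IL-2, and 0.86 and 0.24 in CD25pos cells with and without it. CD25neg cells had the lowest median, -0.91. Among the 7 sorted arrays CD25pos cells after IL-2 held the highest level of 26 genes, and CD25neg cells the lowest level of 31. The share of all genes was not counted for these 7 arrays. Among the sorted arrays without IL-2, CD25pos cells were highest for 35 members (24.6% of all genes) and CD25neg cells lowest for 32 (24.1%). Without IL-2, 23 of the 42 genes followed the order CD25pos, GFPfoxp3, GFPko, CD25neg from high to low, an order shown by 5.29% of all genes. As a description, the level of a gene correlated with the mean of the other members with a median r of 0.95 over these 7 arrays, which share their normalization and tissue, and 36 genes had an r of at least 0.8. Over all genes the median r with the members' mean was 0.03. The exceptions under 0.5 were Orc1 (r = -0.23), a subunit of the origin recognition complex that lay at 3.05 to 3.46, close to the array medians of 3.04 to 3.22, Rpa1 (0.10), the large subunit of the single-strand binding protein RPA, and Pole2 (0.47), the accessory subunit of polymerase epsilon.

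**Figure D1:**
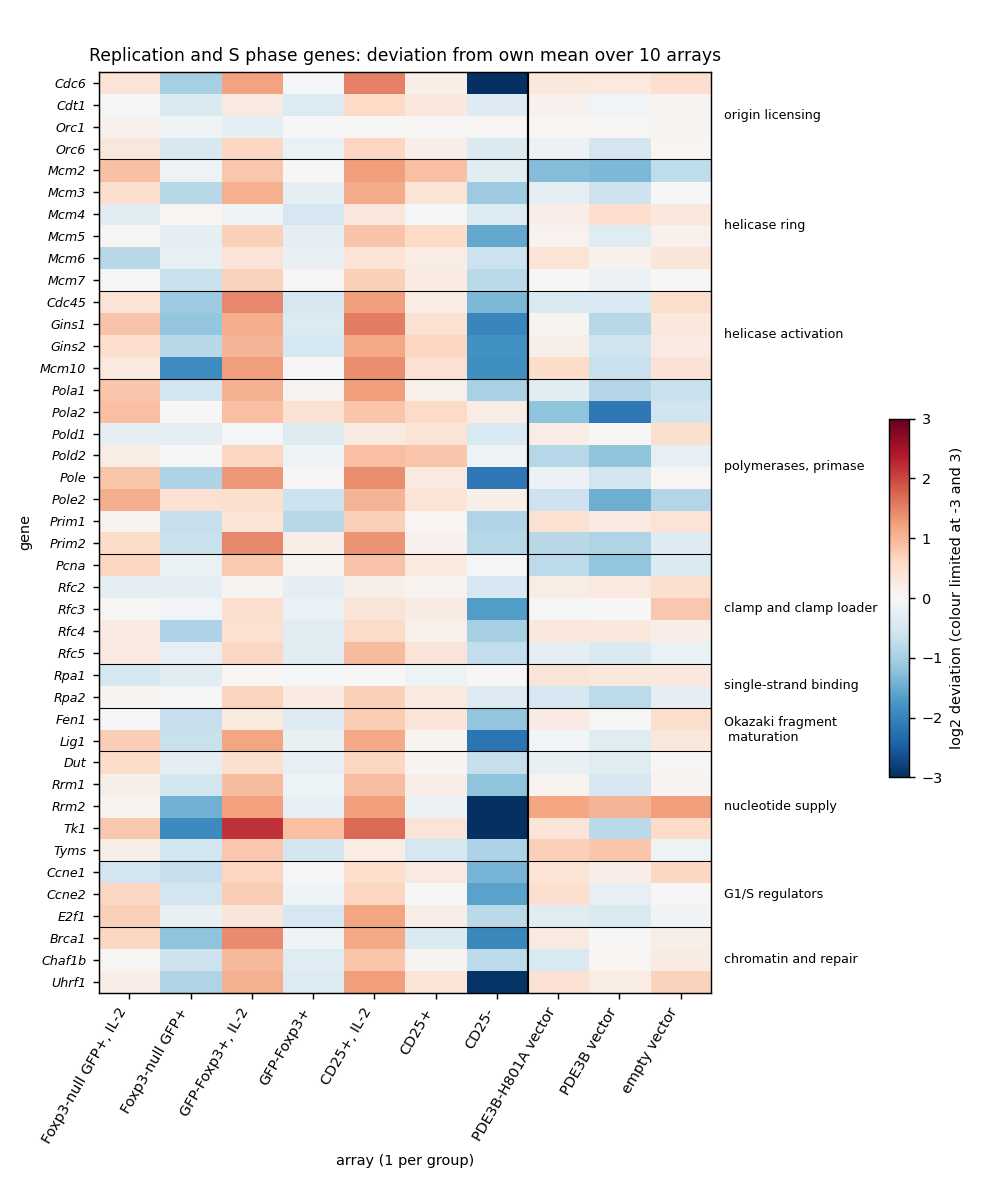
Log2 deviation of each of the 42 genes (down the page, grouped by role) from its own mean over the 10 arrays (across, 1 array per group, transduced cells right of the vertical line); red is above and blue below the mean, and colours stop at -3 and 3. The CD25- array is the bluest and the arrays after IL-2 are mostly red, while Orc1 and Rpa1 show little colour on any sorted array.

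Most of these genes had higher levels after IL-2 in all 3 populations, and 4 passed the test. Rrm2, the small subunit of ribonucleotide reductase, which makes deoxynucleotides, was at 10.31, 11.47 and 11.49 in GFPko, GFPfoxp3 and CD25pos cells after IL-2, against 8.79, 9.98 and 10.06 without it. Brca1, which acts in homologous recombination at broken forks, was at 6.77, 7.57 and 7.31 after IL-2, against 4.95, 6.05 and 5.73 without it. For both genes every array after IL-2 lay above every array without it, and GFPko cells were lowest in either state. The fitted differences were 1.48 for Rrm2 (SE 0.0782, 2.79-fold) and 1.64 for Brca1 (SE 0.0995, 3.12-fold), each with an adjusted p = 0.0394 from limma.

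Cdc6, the loader that brings the MCM ring to origins, was at 6.44, 7.23 and 7.53 in GFPko, GFPfoxp3 and CD25pos cells after IL-2, against 5.02, 5.98 and 6.20 without it. Prim2, the large subunit of primase, was at 7.43, 8.33 and 8.23 after IL-2, against 6.21, 7.06 and 7.01 without it. Again the arrays with and without IL-2 did not overlap, although a second bright probe set of Prim2 showed no increase in GFPko cells. The fitted differences were 1.33 for Cdc6 (SE 0.084, 2.52-fold) and 1.24 for Prim2 (SE 0.0773, 2.35-fold), again with an adjusted p = 0.0394 each from limma.

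These 4 were the members that limma called higher with IL-2 at an adjusted p under 0.05, the threshold used throughout, where 0.235% of all genes were called higher (28 genes). It called 0 members lower, as it did 0% of all genes, and 0 members were lower at an unadjusted p under 0.05 while 33 were higher. Unadjusted counts, here and below, are given without the share of all genes at that threshold, which was not counted. The median over the 42 genes was 0.80, against 0.00 over all genes. Counted by pairs of arrays, 37 members were higher in all 3 populations (17% of all genes were), 9 were at least 2-fold higher in all 3 (0.653% of all genes), and in 20 every array with IL-2 lay above every array without it (4.2% of all genes). Counts of calls depended on the processing. Quantile normalization, no filter on dim genes, an intensity trend with robust variance, no population term, or leaving out the arrays of any 1 population each left 0 members and 0 genes called. Centring each array on the median of the genes kept by the filter, called centring below, gave 15 members. A measure of RNA or cRNA shortening, the level at the 3′ end minus that at the 5′ end of a control gene, was lower after IL-2 in all 3 populations for Actb. For Actb it was 2.76, 2.70 and 2.86 in GFPko, GFPfoxp3 and CD25pos cells after IL-2, against 3.69, 3.07 and 3.80 without it. The same measure for Gapdh was 5.27, 5.53 and 5.24 after IL-2, against 5.94, 5.55 and 6.43 without it, nearly level in GFPfoxp3 cells. The part of RNA quality in the result was not tested.

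By role, helicase activation showed the largest median difference with IL-2 (1.48, 4 genes). Gins1 and Gins2, subunits of the GINS complex, had fitted differences of 1.53 and 1.12. Mcm10 and Cdc45 had 1.46 and 1.50, but both were below the array median in GFPko cells without IL-2. Measured against that median they were at least 3.10-fold and at least 2.42-fold higher in GFPko cells after IL-2. None of these 4 passed the threshold, with adjusted p from 0.156 to 0.288 in limma. The licensing genes had a median of 0.57 (4 genes), in which Cdt1, the partner of CDC6, stood at 0.45, Orc6 at 0.69 and Orc1 at -0.02.

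The 6 genes of the MCM ring had a median of 0.56. Mcm3 was highest at 1.13 and Mcm2, Mcm7 and Mcm5 followed at 0.72, 0.58 and 0.53. Mcm4 (0.14) and Mcm6 (0.08) showed no common direction among populations on the probe sets used, and their other bright probe sets gave positive values in all 3.

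Polymerases and primase had a median of 0.85 (8 genes). Pole and Pola1, the catalytic subunits of the leading strand polymerase epsilon and of the primer-extending polymerase alpha, had differences of 1.39 and 1.14. Prim1, the catalytic subunit of primase, had 0.89 and Pole2 had 0.80. Pola2 (0.54), the accessory subunit of polymerase alpha, and Pold2 (0.36) and Pold1 (0.07), subunits of polymerase delta, which copies the lagging strand, were at the low end. For the sliding clamp and its loader the median was 0.67 (5 genes), with Rfc4 at 0.80, Pcna at 0.70, Rfc5 at 0.67, Rfc3 at 0.31 and Rfc2 at 0.14. Pcna, the clamp itself, was at 13.12, 13.27 and 13.35 in GFPko, GFPfoxp3 and CD25pos cells after IL-2, against 12.28, 12.56 and 12.79 without it.

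Single-strand binding proteins showed the smallest median with IL-2 (0.17, 2 genes), Rpa2 at 0.32 and Rpa1 at 0.02. In Okazaki fragment maturation the ligase gene Lig1 stood at 1.29 (adjusted p = 0.0696 in limma) and the flap endonuclease gene Fen1 at 0.59. Among the nucleotide supply genes (median 0.95, 5 genes), Tk1, a thymidine salvage kinase, had the largest fitted difference of all members, 1.77 (SE 0.333), and the adjusted p was 0.266 in limma. Its 3 pairs were uneven, 2.71 in GFPko, 1.28 in GFPfoxp3 and 1.32 in CD25pos cells. Tyms, thymidylate synthase, had 0.95, Rrm1, the large subunit of ribonucleotide reductase, 0.85, and Dut, which removes dUTP, 0.70.

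Of the G1/S regulators, E2f1, which encodes the transcription factor that drives many of these genes, had a difference of 0.93 (SE 0.0784, adjusted p = 0.0671 in limma) with pairs of 0.93 in GFPko, 0.89 in GFPfoxp3 and 0.98 in CD25pos cells. The cyclin E genes, whose proteins activate CDK2 at the G1/S boundary, had 0.91 for Ccne2 and 0.37 for Ccne1. In chromatin and repair, Uhrf1, which maintains DNA methylation behind the fork, stood at 1.15 and Chaf1b, a chromatin assembly subunit, at 0.90.

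**Figure D2:**
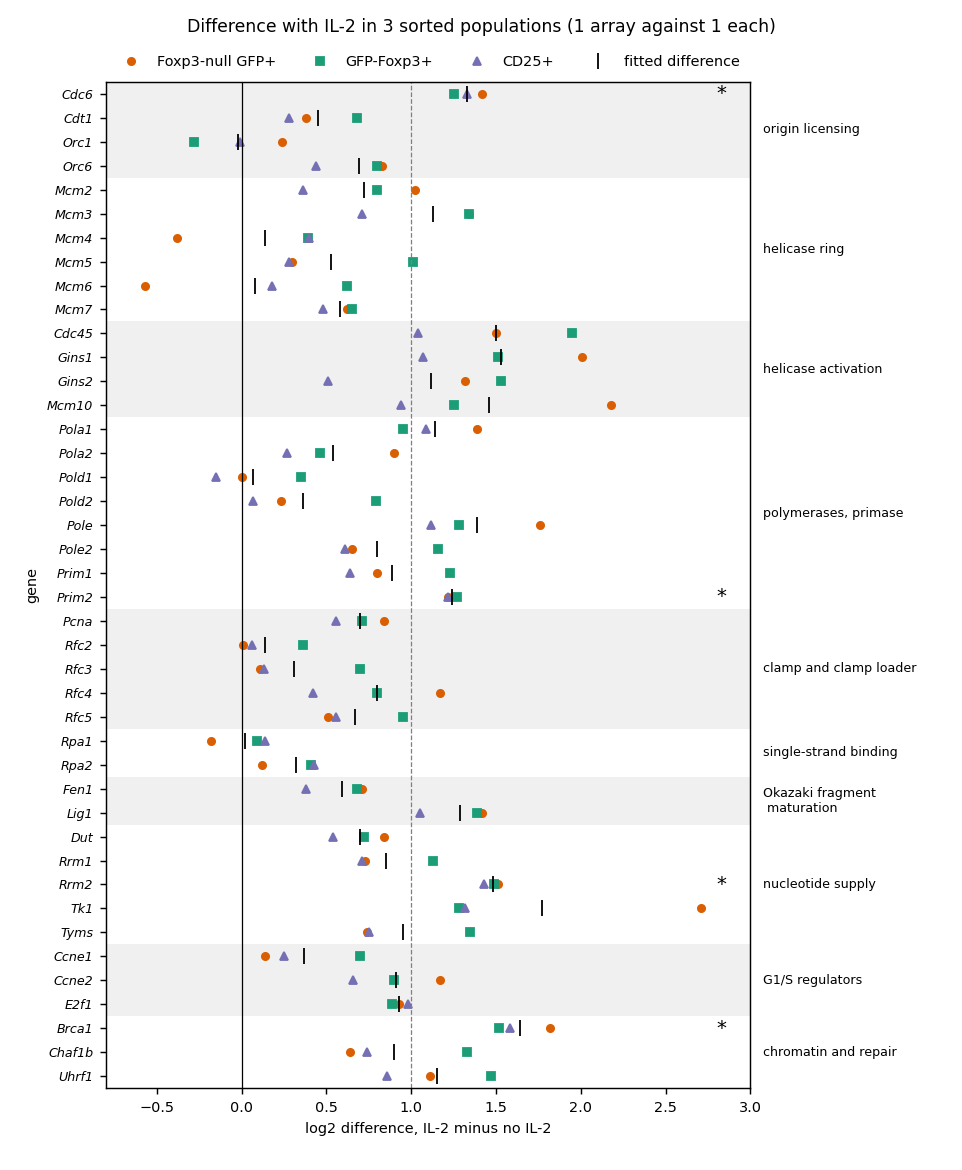
Log2 difference between the array with and the array without IL-2 for each of the 42 genes in Foxp3-null GFP+ cells (circles), GFP-Foxp3+ cells (squares) and CD25+ cells (triangles), with the fitted difference as a short bar, a dashed line at 2-fold and a star at the 4 genes with an adjusted p under 0.05. Most symbols lie right of 0, and all 3 symbols of each starred gene lie beyond the dashed line.

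The IL-2 differences were largest on the median in GFPfoxp3 cells, followed by GFPko and CD25pos cells, in values that were not tested because each pair is 1 array against 1. The median difference was 0.84 in GFPko, 0.93 in GFPfoxp3 and 0.56 in CD25pos cells. In GFPko cells 17 members were at least 2-fold higher and 0 lower, where 2.91% of all genes were higher and 2% lower by that much. In GFPfoxp3 cells 19 members were at least 2-fold higher and 0 lower (1.73% and 0.218% of all genes). In CD25pos cells 10 were higher and 0 lower (0.997% and 0.352% of all genes). The response was largest in GFPko cells for 19 members, in GFPfoxp3 cells for 19 and in CD25pos cells for 4, a split not counted over all genes. The largest responses in GFPko cells were those of Tk1 (7.21 with IL-2, against 4.50 without), Mcm10, Gins1 and Brca1. In GFPfoxp3 cells they were Cdc45 (5.43, against 3.48), Gins2, Brca1 and Gins1, and in CD25pos cells Brca1 (7.31, against 5.73), Rrm2, Cdc6 and Tk1.

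After IL-2 the levels in one population often passed those of another without it. GFPko cells after IL-2 were above GFPfoxp3 cells without it for 35 of the 42 genes (52.4% of all genes). They were below CD25pos cells without IL-2 for 20 (56.2% of all genes). GFPfoxp3 cells after IL-2 were above CD25pos cells without it for 34 (44.8% of all genes). Among the arrays after IL-2, GFPko was the lowest for 36 members (34.5% of all genes) and CD25pos the highest for 27 (36.3%).

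Promoters are shown for Cdc6 and Rrm2, called with IL-2, and for the ring genes Mcm6 and Mcm7, which differ in the number of E2F forms, because E2F factors are the known regulators of this group. Each line gives the 250 bases before the gene start, 5′ to 3′ on the gene's strand, from RefSeq on GRCm38.p6, with the E2F forms in capitals. The windows are chr11:98907901-98908150 on the plus strand for Cdc6, chr1:128359706-128359955 on the minus strand for Mcm6, chr5:138171884-138172133 on the minus strand for the second start of Mcm7, and chr12:24708004-24708253 on the plus strand for Rrm2.
Cdc6: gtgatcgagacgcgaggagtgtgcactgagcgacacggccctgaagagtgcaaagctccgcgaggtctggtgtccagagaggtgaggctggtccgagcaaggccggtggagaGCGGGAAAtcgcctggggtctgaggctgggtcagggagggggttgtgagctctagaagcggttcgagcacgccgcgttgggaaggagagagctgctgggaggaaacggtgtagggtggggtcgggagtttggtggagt
Mcm6: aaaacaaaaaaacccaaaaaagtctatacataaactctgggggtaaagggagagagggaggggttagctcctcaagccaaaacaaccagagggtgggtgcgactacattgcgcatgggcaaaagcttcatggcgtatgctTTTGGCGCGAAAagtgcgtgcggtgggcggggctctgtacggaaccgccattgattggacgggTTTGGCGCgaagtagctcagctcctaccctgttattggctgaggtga
Mcm7: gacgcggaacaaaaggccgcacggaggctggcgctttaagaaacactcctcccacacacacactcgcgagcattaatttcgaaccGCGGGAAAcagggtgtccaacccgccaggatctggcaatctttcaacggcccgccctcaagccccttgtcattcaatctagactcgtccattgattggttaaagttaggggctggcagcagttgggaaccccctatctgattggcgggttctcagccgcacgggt
Rrm2: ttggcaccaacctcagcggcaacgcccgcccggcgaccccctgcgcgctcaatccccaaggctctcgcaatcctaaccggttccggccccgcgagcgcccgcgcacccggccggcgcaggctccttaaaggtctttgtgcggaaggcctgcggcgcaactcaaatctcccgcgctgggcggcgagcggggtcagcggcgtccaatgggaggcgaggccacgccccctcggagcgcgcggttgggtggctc

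The forms searched were TTTCGCGC, TTTGGCGC, TTTCCCGC and TTTGGCGG on either strand. Of the 42 genes 35 had a promoter in the table, and 9 of these (25.7%) held at least 1 form, namely Cdc6, Mcm5, Mcm6, Mcm7, Orc1, Pola1, Rfc3, Rpa1 and Uhrf1. Over all 27025 genes with a promoter 610 did (2.26%). A gene with several windows was counted, here and over all genes, if any of its windows held a form. The other windows of Mcm7 and Uhrf1 held none. Counting from the last base before the start as -1, the form of Cdc6 began at -138 and that of Mcm7 at -165. Mcm6 held 3, at -110, -106 and -47, the first 2 overlapping, and Rrm2 held none. The letters CCAAT on either strand, a box found in many cell cycle promoters, were in 20 of the 35 (57.1%), against 37.5% of all genes with a promoter. The windows of the members had a median GC content of 59.6%, against 52.4% over all windows, and the forms are rich in G and C. A match of letters describes the sequence and is not a measured binding site. The fitted differences with IL-2 of the 9 genes with a form were 1.33 for Cdc6, 1.15 for Uhrf1, 1.14 for Pola1, 0.58 for Mcm7, 0.53 for Mcm5, 0.31 for Rfc3, 0.08 for Mcm6, 0.02 for Rpa1 and -0.02 for Orc1.

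GFPko cells had lower levels of most of these genes than GFPfoxp3 cells, a comparison of cells that read the Foxp3 locus without and with making the protein. Rrm2 was at 10.31 with IL-2 and 8.79 without in GFPko cells, against 11.47 and 9.98 in GFPfoxp3 cells. Each GFPko array was below its GFPfoxp3 partner in the same IL-2 state, while the treated GFPko array was above the untreated GFPfoxp3 one. Rrm2 fell by 1.17 (SE 0.0958, 2.25-fold, adjusted p = 0.0122 in limma). Brca1 fell by 0.95 (SE 0.122, adjusted p = 0.0281 in limma), at 6.77 and 4.95 in GFPko cells with and without IL-2, against 7.57 and 6.05 in GFPfoxp3 cells.

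Mcm7 was at 11.09 and 10.47 in GFPko cells with and without IL-2, against 11.82 and 11.17 in GFPfoxp3 cells. These arrays did not overlap, and the gene fell by 0.72 (SE 0.103, adjusted p = 0.0354 in limma). Cdc6 and Prim2 each fell by 0.87 (SE 0.103 and 0.0947, adjusted p = 0.0244 and 0.0215 in limma), and for both the treated GFPko array lay above the untreated GFPfoxp3 one. The second bright probe set of Prim2 gave -0.99 with IL-2 but 0.29 without it. Rrm2 and Mcm7 were read by probe sets whose suffix marks possible matches to other transcripts.

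These 5 genes were the members called lower, where 5.44% of all genes were, and 0 members were called higher, where 2.03% of all genes were. At an unadjusted p under 0.05, a threshold not counted over all genes, limma gave 18 members lower and 2 higher. The median over the 42 genes was -0.40, against -0.01 over all genes, and 29 were lower in both IL-2 states (35% of all genes). The 4 probe sets of Mcm7 differed in size. The one used gave -0.73 with IL-2 and -0.71 without, and the other 2 that were above the array median on all 10 arrays gave -0.95 and 0.00, and -0.79 and -1.08. The fourth, the one without a cross-matching suffix, was above the median on 7 arrays and gave -1.41 and -2.49, a fitted difference of -1.95. Centring each array on the median of its kept genes adds 0.15 to every difference here. This left the members' median at -0.25, with 32 lower and 10 higher in place of 37 and 5. It turned the share of higher calls over all genes from 27.1% to 48.6%. Without the CD25pos arrays 1 member was called in place of 5.

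The largest difference, that of Tk1, did not pass. Tk1 was at 7.21 and 4.50 in GFPko cells with and without IL-2, against 8.58 and 7.30 in GFPfoxp3 cells, a fitted difference of -2.08 (SE 0.408, adjusted p = 0.063 in limma). The groups did not overlap, and the gap was wider without IL-2 than with it. Mcm10 differed by -1.41 (adjusted p = 0.0859 in limma) and Ccne1 by -0.92 (adjusted p = 0.0584 in limma), while Pole, Mcm6 and Uhrf1 stood at -0.72, -0.62 and -0.68. The difference of Mcm10 rests in part on a level below the array median in GFPko cells without IL-2. On the other side, Pole2 was at 9.02 and 8.38 in GFPko cells with and without IL-2, against 8.44 and 7.28 in GFPfoxp3 cells (0.84, adjusted p = 0.0716 in limma). E2f1 differed by 0.35 (adjusted p = 0.117 in limma) on the probe set used, and its other bright probe set gave -0.21 with IL-2 and 0.15 without it. Mcm2, Pold1 and Dut differed little, by -0.06, -0.04 and 0.01. Summed log2 levels of 7 B cell markers moved with the comparison, 31.3 and 30.6 in GFPko cells with and without IL-2, against 39.3 and 38.8 in GFPfoxp3 cells. Of the 5 B cell markers in the fit limma called 3 lower, Cd74 (-3.11, adjusted p = 0.0122), Ighm (-2.03, adjusted p = 0.0116) and Cd79b (-1.65, adjusted p = 0.0121), and 0 higher. Cd22 (-1.37) and Ms4a1 (0.09) were not called. The other 2 measured, Cd79a and Pax5, were below the array median on all 10 arrays. The part of B cell RNA in the result was not tested.

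Against CD25pos cells, GFP-negative cells sorted for the IL-2 receptor, most members were again lower in GFPko cells. Rrm2 fell by 1.22 (SE 0.0958, adjusted p = 0.0207 in limma), at 10.31 and 8.79 in GFPko cells with and without IL-2, against 11.49 and 10.06 in CD25pos cells. Cdc6 fell by 1.13 (adjusted p = 0.0251 in limma), at 6.44 and 5.02 in GFPko cells, against 7.53 and 6.20 in CD25pos cells. In both genes each GFPko array lay below its CD25pos partner, and the treated GFPko array lay above the untreated CD25pos one.

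Fen1, the endonuclease that trims Okazaki fragments, was at 9.55 and 8.84 in GFPko cells with and without IL-2, against 10.31 and 9.92 in CD25pos cells. These groups did not overlap, and Fen1 fell by 0.92 (SE 0.127, adjusted p = 0.0471 in limma), on a probe set whose suffix marks possible cross-matching. Mcm7 fell by 0.84 and Prim2 by 0.80 (adjusted p = 0.0389 and 0.0374 in limma), where the second bright probe set of Prim2 gave -0.99 with IL-2 and -0.18 without it. Limma called these 5 members lower, where it called 2.24% of all genes, and 0 members higher (1.25% of all genes). At an unadjusted p under 0.05, not counted over all genes, there were 34 lower and 0 higher. The median was -0.70 against -0.01 over all genes, and 38 were lower in both IL-2 states (33.2% of all genes).

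The other members with fitted differences beyond -1 in this comparison, none of which passed, were Mcm10 (-1.72), Tk1 (-1.60), Uhrf1 (-1.17), Gins1 (-1.14), Cdc45 and Gins2 (both -1.08), and Ccne1 (-1.02). Of these, Mcm10 and Cdc45 were below the array median in GFPko cells without IL-2. Orc1 (0.00), Pole2 (0.07) and Tyms (-0.04) differed least. Without the GFPfoxp3 arrays 0 members and 0 genes were called, and centring, which adds 0.14 to each difference, gave 10 members, a median of -0.56 and a share of higher calls over all genes of 51.6% in place of 35.8%. Summed log2 levels of 7 CD8 and NK cell markers were 25.6 and 23.7 in GFPko cells with and without IL-2, against 37.7 and 39.1 in CD25pos cells. Of the 6 in the fit limma called 4 lower, Klrd1 (-5.38, adjusted p = 0.0166), Eomes (-5.17, adjusted p = 0.0191), Klrk1 (-2.20, adjusted p = 0.0166) and Prf1 (-1.66, adjusted p = 0.0252), and 0 higher, while Ncr1 was below the array median on all 10 arrays. The CD8 chain genes Cd8b1 (0.72) and Cd8a (0.03) were not lower and were not called. The summed B cell marker levels were 31.3 and 30.6 in GFPko cells, against 33.3 and 33.7 in CD25pos cells, and limma called Cd79b higher (1.62, adjusted p = 0.0215). The other B cell markers in the fit were not called, with Cd22 at -3.01, Ighm at -1.05, Cd74 at -0.23 and Ms4a1 at 0.06. The part of these markers' cells in the result was not tested.

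Between GFPfoxp3 and CD25pos cells, both from Foxp3(gfp/gfp) mice, 1 member passed. This was E2f1, at 5.17 and 4.28 in GFPfoxp3 cells with and without IL-2, against 5.99 and 5.01 in CD25pos cells. Each GFPfoxp3 array was lower than its partner, the groups overlapped across IL-2 states, and E2f1 fell by 0.78 (SE 0.096, adjusted p = 0.0239 in limma). Its other bright probe set gave -0.38 with IL-2 and -0.20 without it. The E2f1 call held in 7 of 8 alternative ways of processing and was lost with the mean of all probe sets. One of those 7, the fit to all 10 arrays, repeats the main fit by construction. The share of members called lower, 2.38%, was under the 3.45% of all genes that limma called lower. Limma called 0 members higher (5.28% of all genes). At an unadjusted p under 0.05, not counted over all genes, limma gave 10 members lower and 0 higher. The median was -0.23, against -0.03 over all genes, and 29 members were lower in both IL-2 states (43.5% of all genes).

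Differences near that of E2f1 that did not pass were those of Pole2 (-0.78, adjusted p = 0.0813 in limma), Mcm2 and Gins2 (both -0.67), Gins1 (-0.66), Fen1 (-0.63) and Pold2 (-0.62). Rrm2 (-0.05), Cdc6 (-0.26), Prim2 (0.07) and Mcm7 (-0.12) were not called here. Tk1 (0.48), Brca1 (0.30) and Tyms (0.29) were the largest positive values. The comparisons with CD25pos cells share the CD25pos arrays, and those with GFPfoxp3 cells share the GFPfoxp3 arrays, so their values are given side by side and are not independent. The summed CD8 and NK marker levels were 24.2 and 23.1 in GFPfoxp3 cells with and without IL-2, against 37.7 and 39.1 in CD25pos cells, and limma called the same 4 markers lower. Cd8b1 (-0.14) and Cd8a (-0.02) differed little and were again not called. The summed B cell marker levels were 39.3 and 38.8 in GFPfoxp3 cells, against 33.3 and 33.7 in CD25pos cells. Cd79b (3.27, adjusted p = 0.00479), Cd74 (2.88, adjusted p = 0.0125) and Ighm (0.98, adjusted p = 0.038) were called higher by limma. The other B cell markers in the fit, Cd22 (-1.64) and Ms4a1 (-0.04), were not called and were not higher. The part of either cell type in the result was not tested.

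**Figure D3:**
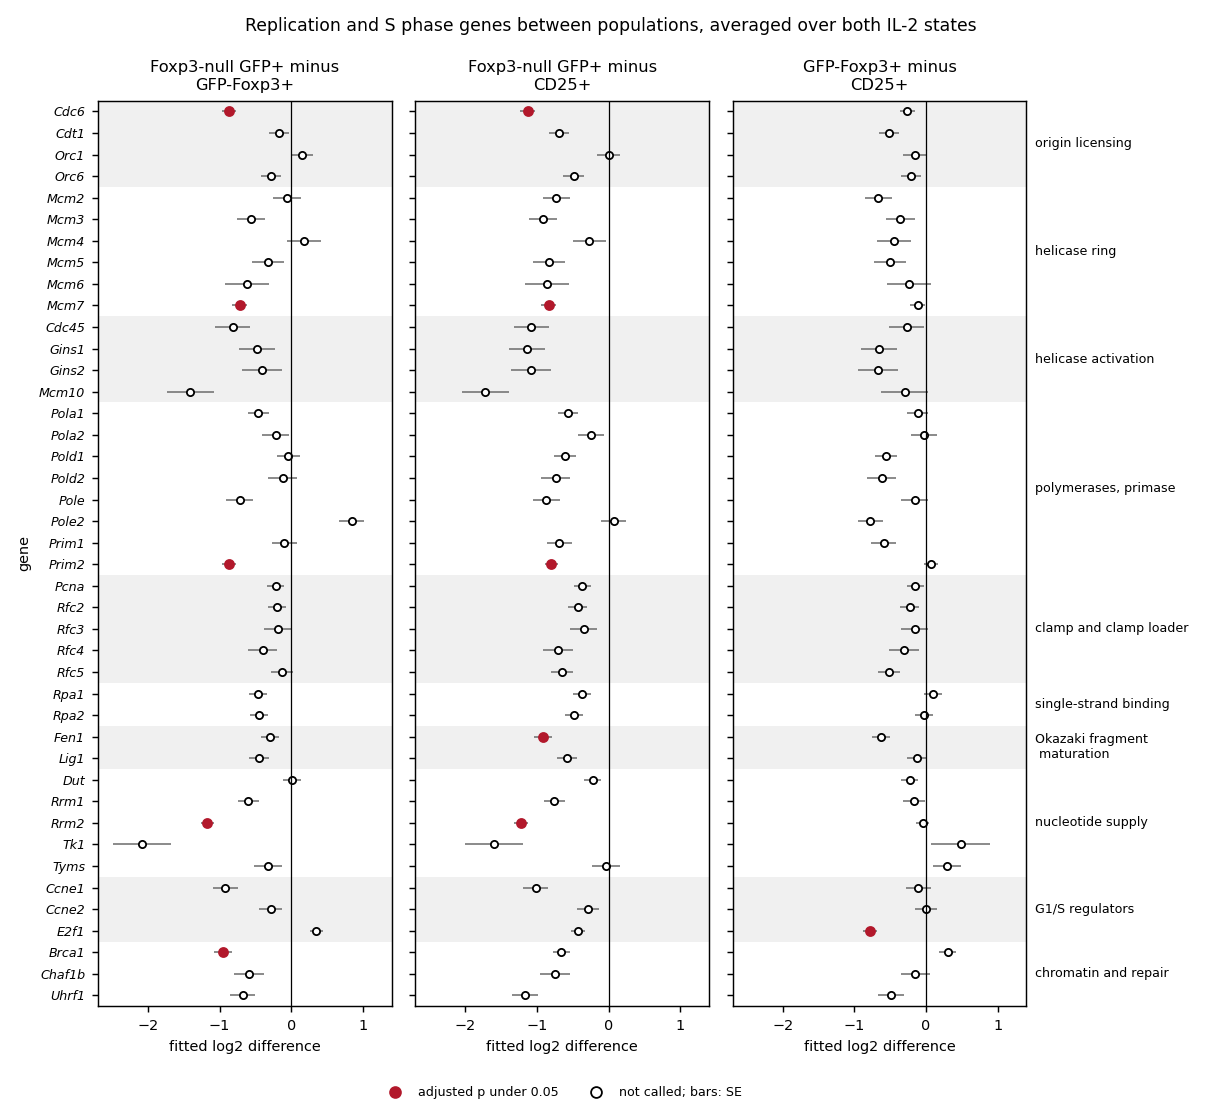
Fitted log2 difference (across, with its SE as a bar) of each of the 42 genes (down the page, by role) for Foxp3-null GFP+ minus GFP-Foxp3+, Foxp3-null GFP+ minus CD25+, and GFP-Foxp3+ minus CD25+ cells; filled points have an adjusted p under 0.05. The middle panel holds 5 filled points and nearly all points left of 0, the left panel 5 filled points, and the right panel only E2f1.

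Many of these genes had higher levels in the 3 populations than in CD25neg cells, the GFP-negative cells without CD25, when no IL-2 was given. Rrm2 was at 8.79, 9.98 and 10.06 in GFPko, GFPfoxp3 and CD25pos cells, against 6.04 in CD25neg cells. Uhrf1 was at 8.03, 8.53 and 9.33, against 5.99 in CD25neg cells, and Lig1 was at 8.32, 8.78 and 9.08, against 6.80. All 3 populations lay more than 2-fold above CD25neg cells for these genes on the probe sets used. The dimmest probe set of Rrm2, above the median on all 10 arrays, gave differences of 0.21, 1.00 and 1.38. Tk1 and Cdc6 were below the array median in CD25neg cells, so their differences are bounds. Tk1 was at least 2.71-fold higher in GFPko, at least 18.90-fold in GFPfoxp3 and at least 13.30-fold in CD25pos cells, and Cdc6 at least 3.90-fold, 7.59-fold and 8.82-fold higher in the same populations.

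In single pairs with no test, 9 members were at least 2-fold higher and 0 lower in GFPko than in CD25neg cells (3.93% and 2.8% of all genes). In GFPfoxp3 cells 17 were higher and 0 lower (7.31% and 3.63%), and in CD25pos cells 24 were higher and 0 lower (5.55% and 1.69%). The medians were 0.37 for GFPko, 0.72 for GFPfoxp3 and 1.14 for CD25pos cells. These pairs share the CD25neg array. Summed CD8 and NK marker levels were 23.7 in GFPko, 23.1 in GFPfoxp3 and 39.1 in CD25pos cells, against 34.2 in CD25neg cells. Summed B cell marker levels were 30.6, 38.8 and 33.7 in the same populations, against 32 in CD25neg cells. The part of either cell type in these differences was not tested. Among the members whose differences were small were Rpa1, at -0.35 in GFPko, -0.02 in GFPfoxp3 and -0.14 in CD25pos cells, and Pcna, at -0.15, 0.13 and 0.36. Mcm10 was below the array median in both GFPko (2.56) and CD25neg cells (2.60).

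In the transduced cells the values with PDE3B were mostly the lowest of the 3 vectors. Pola2 was at 5.50 with H801A, 4.56 with PDE3B and 6.10 with the empty vector, and Gins1 was at 6.88, 5.97 and 7.10. Tk1 was at 6.80 with H801A, 5.61 with PDE3B and 7.0 with the empty vector, and Mcm10 was at 5.00, 3.78 and 4.87. For these 4 genes the PDE3B array was more than 2-fold below the empty vector and the H801A array lay within 2-fold of it. With 1 array per vector there was no test.

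Counted over all 42 genes, the PDE3B array was at least 2-fold lower than the empty vector for 4 members and higher for 0 (4.25% and 1.2% of all genes). H801A was at least 2-fold lower for 0 and higher for 0 (1.37% and 0.93% of all genes), and against PDE3B it was higher for 2, Mcm10 by 1.22 and Tk1 by 1.19, and lower for 0 (2.3% and 0.737% of all genes). The medians were -0.20 for H801A minus empty, -0.47 for PDE3B minus empty and 0.22 for H801A minus PDE3B, against -0.03, -0.05 and 0.02 over all genes. PDE3B gave the lowest value of 34 members (43.7% of all genes). Tyms went the other way, at 5.17 with H801A and 5.30 with PDE3B, against 4.32 with the empty vector, and the helicase gene Cdc45 was similarly low with H801A (3.52) and PDE3B (3.53), against 4.50. Centring adds 0.22 to PDE3B minus empty and turns the split of members from 38 lower and 4 higher to 29 lower and 13 higher. The Actb 3′ to 5′ difference was 5.95 with H801A, 6.38 with PDE3B and 5.87 with the empty vector, against 2.70 to 3.80 in the sorted cells. Its part in these differences was not tested, and these 3 comparisons share arrays.

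Other genes of the pathway, from a list of 47 of which 45 were measured, had smaller median differences than the members. With IL-2 limma called 1 of them higher and 0 lower (27 and 0 at an unadjusted p under 0.05), with a median of 0.47. This was E2f8, a repressor of the E2F family, at 6.72, 8.20 and 8.21 in GFPko, GFPfoxp3 and CD25pos cells after IL-2, against 5.30, 6.55 and 6.73 without it (1.52, adjusted p = 0.0394 in limma). E2f8 was also the 1 called lower in GFPko than in GFPfoxp3 cells (-1.36, adjusted p = 0.0121 in limma). In GFPko minus CD25pos cells Hells, a chromatin remodeller (-1.21), Wdhd1, which tethers polymerase alpha to the fork (-0.87), and E2f8 (-1.46) were lower by limma, with adjusted p of 0.0433, 0.0324 and 0.0207. In GFPfoxp3 minus CD25pos cells Cdc7, the kinase that fires origins (-0.70), Timeless, which protects forks (-0.81), and Shmt1, an enzyme of one-carbon metabolism (-0.98), were lower, with adjusted p of 0.0413, 0.0327 and 0.0325 in limma. Wdhd1 and Cdc7 were chosen after their values were seen.

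Genes of mitosis had larger median differences than the replication genes. Of 17 measured, limma called 14 lower in GFPko than in GFPfoxp3 cells (median -1.62), 9 lower in GFPko than in CD25pos cells (median -1.11) and 6 higher with IL-2 (median 1.76), with 0 in the opposite direction each time. Ccnb2, which encodes a mitotic cyclin, was at 6.40 and 3.59 in GFPko cells with and without IL-2, against 8.76 and 7.33 in GFPfoxp3 cells. These groups did not overlap, and Ccnb2 had the largest difference of the list (-3.05, adjusted p = 0.0233 in limma). Between GFPfoxp3 and CD25pos cells the medians of these lists had opposite signs, 0.49 for mitosis and -0.23 for the replication genes. Limma called 0 mitosis genes there, with 8 higher and 0 lower at an unadjusted p under 0.05, and of the replication genes E2f1. As a description, the array medians of the replication and mitosis genes correlated with r = 0.95 over the 7 sorted arrays, which share their normalization and populations.

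**Figure D4:**
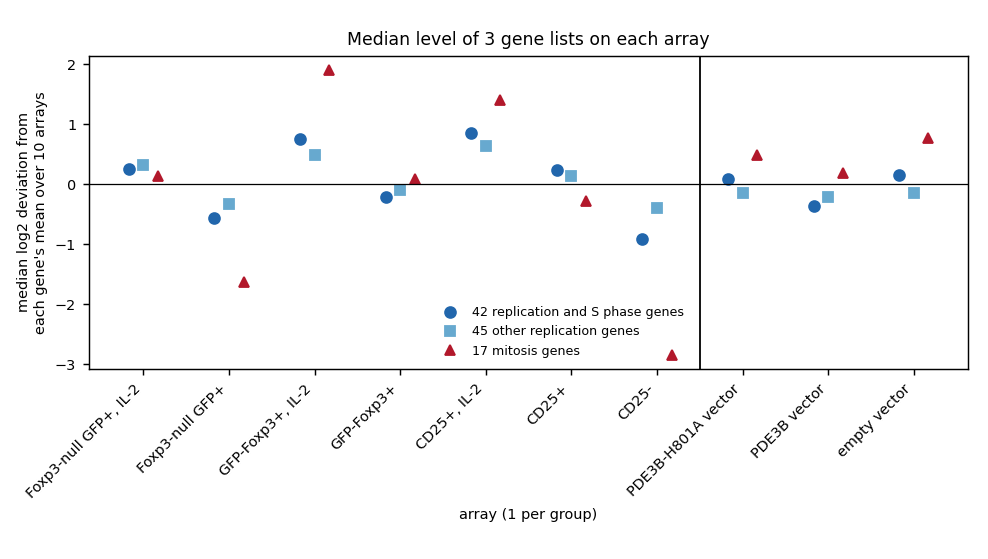
Median log2 deviation from each gene's mean over 10 arrays (up) on each array (across, transduced cells right of the vertical line) for the 42 replication and S phase genes (circles), 45 other replication genes (squares) and 17 mitosis genes (triangles). Mitosis genes span -2.84 in CD25- cells to 1.90 in GFP-Foxp3+ cells after IL-2, and the 42 genes -0.91 to 0.86.

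Genes that act before S phase, or hold cells out of it, were counted in the same way. Of 8 G1 cyclins, kinases and related regulators limma called 0 in any of the 4 comparisons, where at an unadjusted p under 0.05 there were 1 higher and 0 lower with IL-2, 2 and 0 in GFPko minus GFPfoxp3, 0 and 2 in GFPfoxp3 minus CD25pos, and 1 and 2 in GFPko minus CD25pos cells. Myc, a growth regulator, was at 10.60 with IL-2, against 8.50 without it, in GFPko cells, 9.61 against 8.76 in GFPfoxp3 cells and 8.61 against 8.40 in CD25pos cells. Of 15 inhibitors and quiescence genes Cdkn2c, which blocks CDK4 and CDK6, was lower in GFPko than in GFPfoxp3 cells (-1.25, adjusted p = 0.015 in limma). It was higher in GFPfoxp3 than in CD25pos cells (0.70, adjusted p = 0.0389 in limma), as was Cdkn1b, which encodes the CDK inhibitor p27 (0.58, adjusted p = 0.0438 in limma). With IL-2 limma called 0 of the 15 (2 higher and 2 lower at an unadjusted p under 0.05), and in GFPko minus CD25pos cells 0 (4 higher and 2 lower).

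Probe sets of one gene did not always agree. The 42 genes had 94 probe sets, 33 of them with more than 1, and 24 unused ones, from 20 genes, were above the median on all arrays. All 24 had the same sign of the mean IL-2 difference as the probe set used, although single pairs could differ. For Mcm4 the other probe set gave IL-2 differences of 0.66, 0.84 and 0.54 in GFPko, GFPfoxp3 and CD25pos cells, where the one used gave -0.38, 0.39 and 0.40. For Mcm6 the other gave 1.02, 0.55 and 0.57, where the one used, with a suffix for possible cross-matching, gave -0.57, 0.62 and 0.18. In both genes the negative value in GFPko cells was seen on only 1 of the 2 bright probe sets. Prim2 went the other way, since its second bright probe set gave -0.05, 1.23 and 0.76, where the one used gave 1.22, 1.27 and 1.22. Both other probe sets of Rrm2 gave values near the one used, 2.08, 1.68 and 1.58 on the brighter and 1.67, 1.55 and 1.51 on the dimmer. They were further apart for PDE3B minus empty vector, where the one used gave -0.25 and the others -1.59 and -0.66. The same was true of GFPko minus CD25neg cells, where the one used gave 2.75 and the others 2.09 and 0.21.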

How the data were processed

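Labelled cRNA from each of 10 samples, amplified in 2 rounds per the labels' protocols, was hybridized to Affymetrix mouse arrays. The deposited values are log2 expression levels of 45101 probe sets. The authors normalized the 10 arrays jointly, according to the series' design text. The log2 scale was read from the values, while software, background correction and probe summary are not given in the sources used. Gene names came from the platform annotation, updated by Entrez ID to RefSeq (1 gene for 34958 probe sets, several for 932, no listed gene for 9211). Single-gene probe sets at or above their array's median on at least 1 array were kept, and the brightest on average stood for its gene, which left 11939 genes.

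Population and IL-2 entered as additive terms in a fit to 6 arrays over all kept genes by lmFit and eBayes of limma 3.58.1 (R 4.3.3), which left 2 residual degrees of freedom and gave 2.23 prior degrees of freedom with a prior SD of 0.129. Benjamini-Hochberg adjustment ran over all kept genes, with calls under 0.05, and standard errors come from this fit. The 9 pairs of single arrays were described at 2-fold with no test. Where the lower side lay below its array median, a fold of "at least" sets the higher value against that median. The fit was tested on simulated data.

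All members could be named, with values on every array for up to 6 called members per direction, and up to 4 members per pair or genes of each other list per comparison. Members, lists and alternatives were chosen with earlier results of these data known. The alternatives tried for normalization were quantile normalization and centring each array on the median of the kept genes. Those for probe sets and genes were the mean of all probe sets, no cross-matching probe sets, and no filter on dim genes. Those for the fit were an intensity trend with robust variance, 10 arrays, no population term, and leaving out a population. The fit to 10 arrays repeats the main fit by construction, because each added array has its own term. Single IL-2 states and a 3-fold threshold were also tried. The count over only those members above the array median on all 10 arrays was chosen after seeing the data. Promoter windows came from RefSeq on GRCm38.p6. Chaf1a was not analysed here.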

Additional observations from a re-analysis of the deposited data

Results flagged for a closer look

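In 5 of the 42 genes the arrays of different populations moved in opposite directions with IL-2. These differences between populations were not tested, since each value is 1 array minus 1 array. In all 3 pairs 37 members were higher and 0 lower, against 17% and 18.2% of all genes. Mixed directions were thus less common among the members than over all genes. Mcm4 gave -0.38 in GFPko, 0.39 in GFPfoxp3 and 0.40 in CD25pos cells. Mcm6 gave -0.57 in GFPko, 0.62 in GFPfoxp3 and 0.18 in CD25pos cells. Another bright probe set of each of these ring genes gave positive values in all 3 populations.

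Pold1, the catalytic subunit of polymerase delta, gave 0.00 in GFPko, 0.35 in GFPfoxp3 and -0.15 in CD25pos cells, and its other bright probe set gave 1.08, 0.80 and 0.30. Rpa1 gave -0.18 in GFPko, 0.09 in GFPfoxp3 and 0.14 in CD25pos cells, and its other bright probe set gave 0.25, 0.26 and 0.34. Orc1, close to the array median throughout, gave 0.24 in GFPko, -0.28 in GFPfoxp3 and -0.01 in CD25pos cells. Its other probe set, above the median on 3 arrays, gave 0.09, 0.75 and 0.44.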

How the results depend on the processing

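No paired analysis was possible because every replicate number is 1, other than through the population term of the IL-2 fit, which pairs the 3 arrays with IL-2 with the 3 without it. Of 1470 pairings of a member's fitted difference with an alternative, 1354 kept direction and side of the threshold, 53 lost a call, 30 gained one and 33 changed sign with no call in either. These pairings, and the 8 and 11 alternatives below, include the fit to all 10 arrays. That fit gives each added array its own term, so it repeats the main fit by construction. No called difference changed sign under any alternative run. Rrm2 in GFPko minus GFPfoxp3 cells was the 1 of 15 called differences that stayed called under every alternative (8 of 8, limma adjusted p 0.0056 to 0.0406). The Rrm2 call with IL-2 held in 3 of 11, with adjusted p from 0.00496 to 1 in limma and differences of 1.44 to 1.78.

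The count of members called in GFPko minus GFPfoxp3 cells, 5, became 9 with centring (8 lower and 1 higher), 3 with no filter on dim genes and 1 without the CD25pos arrays. In GFPfoxp3 minus CD25pos cells the count of 1 became 3 with centring, and at 2-fold with no test it was 2 in the pair without IL-2 and 0 in the pair with it. In GFPko minus CD25pos cells the count of 5 became 10 with centring, 1 with no filter, 0 without the GFPfoxp3 arrays, and 13 at 2-fold in the pair without IL-2. For IL-2 the count of 4 became 15 with centring. It was 0 with quantile normalization, no filter, the intensity trend with robust variance, no population term, or without the GFPko, GFPfoxp3 or CD25pos arrays. Over all genes the 28 calls with IL-2 became 113 higher and 8 lower with centring and 0 under those other alternatives. Why these counts move was not tested, beyond the fewer arrays or additional genes that some alternatives have by construction.

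At 3-fold in place of 2-fold the counts for IL-2 were 5 in GFPko, 1 in GFPfoxp3 and 0 in CD25pos cells. Those against CD25neg were 5 in GFPko, 8 in GFPfoxp3 and 13 in CD25pos cells, and those for PDE3B minus empty and H801A minus PDE3B were 0. For H801A minus empty the count of 0 became 1 with quantile normalization and 1 without cross-matching probe sets. For PDE3B minus empty the count of 4 became 8 without cross-matching probe sets and 2 over only the 38 members above the array median on all 10 arrays. Over those 38 members H801A minus PDE3B had 0 in place of 2. Levels near the array median limit the differences of Mcm10, Cdc45, Tk1, Cdc6 and Orc1.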
